A study of Mus musculus with 10 samples.

Results

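Smpx, Folr1, Pate4, Tek, Bglap, Bglap2, Lect2, Gm4952 and Gm17660 are 9 of the 12160 genes listed for sorted pancreatic epithelial cells. They were selected on their measured values: each was at or near the lowest value of the library in most non-tuft libraries and high in all 5 tuft libraries. All 10 libraries entered that choice, so the contrast between the groups is described for these genes and carries no test. The genes have no known common role in tuft cells, and most are better known from other organs.

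RNA sequencing served to survey, without a prior candidate, what tuft cells may do in the injured pancreas. Wild-type male CD1 mice, for which the sample records give a mixed strain and no age, received 4 cycles of caerulein at 250 μg/kg and recovered for 0 to 2 days. Caerulein is a cholecystokinin analogue that overstimulates acinar cells and causes pancreatitis, and every mouse in both groups received it, so no uninjured pancreas was measured. Live Cd45-neg, EpCAM+ cells were sorted by flow cytometry as Siglec f+ (tuft) or Siglec f-neg (non-tuft epithelium), with 100 cells in each Smart-Seq2 library and 5 libraries in each group. Both populations were sorted from 5 mice, each tuft library from an individual mouse, and the sources used here do not say whether libraries with the same number share a mouse. Levels are quantile-normalized log2(RPKM + 1), where RPKM is the read count scaled to transcript length and library size, so levels of different genes can be set side by side per length. In bulk libraries, fewer cells of a type and less RNA per cell cannot be told apart.

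Tuft cells are rare chemosensory epithelial cells with a brush of stiff apical microvilli. They carry a taste-like signaling cascade that ends in the cation channel Trpm5, depend on the transcription factor Pou2f3, and release interleukin 25, eicosanoids and acetylcholine. The normal mouse pancreas has few or none, and they arise there by metaplasia of acinar cells after injury.

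Of the 9 genes, 5 encode secreted proteins. Pate4, also named Svs7, is a small Ly6/uPAR protein of seminal vesicle fluid, and Lect2 is a leukocyte chemotactic factor made mainly by hepatocytes. Bglap and Bglap2 are neighbouring copies of the osteocalcin gene, whose product is carboxylated by a vitamin K dependent enzyme and stored in bone matrix. Gm17660, for which RefSeq gives the synonym Scpppq1, belongs to the secretory calcium-binding phosphoproteins, a family of mineral matrix and milk proteins. The cell surface proteins are Folr1, the folate receptor alpha held by a lipid anchor, and Tek, also named Tie2, the receptor tyrosine kinase for angiopoietins on endothelial cells. Smpx encodes a small cytoskeletal protein of striated muscle, and Gm4952 is a predicted gene beside Glyat, which encodes a mitochondrial enzyme that joins glycine to acyl-CoA.

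The 9 genes are not clustered in the genome, apart from the osteocalcin pair. In mm9 (NCBIM37), Pate4 spans chr9:35414678-35419520 (minus strand), Lect2 chr13:56643821-56649899 (minus), Gm17660 chr5:104499083-104506627 (minus) and Gm4952 chr19:12674506-12702106 (plus). Folr1 spans chr7:109006845-109019302 (minus), Tek chr4:94405980-94541667 (plus) and Smpx chrX:154136842-154190523 (plus). Bglap, at chr3:88187423-88188386, and Bglap2, at chr3:88181658-88182621, lie beside each other.

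The osteocalcin copies are shown because their near identity decides how far reads could be assigned to each. In mm9 (NCBIM37) they lie on the minus strand of chromosome 3, with the 4 coding exons of Bglap within chr3:88187560-88188337, those of Bglap2 within chr3:88181795-88182572, and those of Bglap3, another copy that was not among the 9 genes, within chr3:88172681-88173458. The coding sequences below are read from that genome, 5′ to 3′ on the gene's strand, and capitals mark the 13 positions at which the copies differ.
Bglap: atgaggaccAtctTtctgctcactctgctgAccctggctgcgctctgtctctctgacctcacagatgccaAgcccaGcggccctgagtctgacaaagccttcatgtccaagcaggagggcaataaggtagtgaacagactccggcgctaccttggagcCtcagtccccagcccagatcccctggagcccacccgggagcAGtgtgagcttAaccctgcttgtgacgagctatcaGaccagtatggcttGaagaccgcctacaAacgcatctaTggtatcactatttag
Bglap2: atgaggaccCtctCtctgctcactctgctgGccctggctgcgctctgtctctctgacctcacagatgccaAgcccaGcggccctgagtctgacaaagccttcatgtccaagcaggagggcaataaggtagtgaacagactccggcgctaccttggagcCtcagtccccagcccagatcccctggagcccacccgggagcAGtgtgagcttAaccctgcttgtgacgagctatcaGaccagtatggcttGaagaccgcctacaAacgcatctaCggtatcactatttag
Bglap3: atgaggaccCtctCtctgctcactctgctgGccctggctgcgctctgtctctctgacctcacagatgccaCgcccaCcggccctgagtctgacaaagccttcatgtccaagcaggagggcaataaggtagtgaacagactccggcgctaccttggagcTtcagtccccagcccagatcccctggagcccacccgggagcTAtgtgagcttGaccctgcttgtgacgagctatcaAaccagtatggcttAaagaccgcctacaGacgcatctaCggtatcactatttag
Each is 288 bases long. Bglap and Bglap2 differ at 4 positions (98.6% identity), Bglap2 and Bglap3 at 9 (96.9%), and Bglap and Bglap3 at 13 (95.5%). The longest run without a difference spans 81 bases, from position 78 to 158 of the coding sequence. Because reads were 50 bases long, every 50-base window of each gene's longest coding transcript was also looked up in the transcripts of all other coding genes. Of 391 windows in the Bglap transcript, 292 (74.7%) were also in Bglap2, and of 422 in the Bglap2 transcript, 372 (88.2%) were in Bglap or Bglap3. Levels of these copies are therefore uncertain as single genes and are read here as a group. Pate4 shared 127 of 1017 windows (12.5%) with its family member Pate2, and the other 6 genes shared none.

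**Figure D1:**
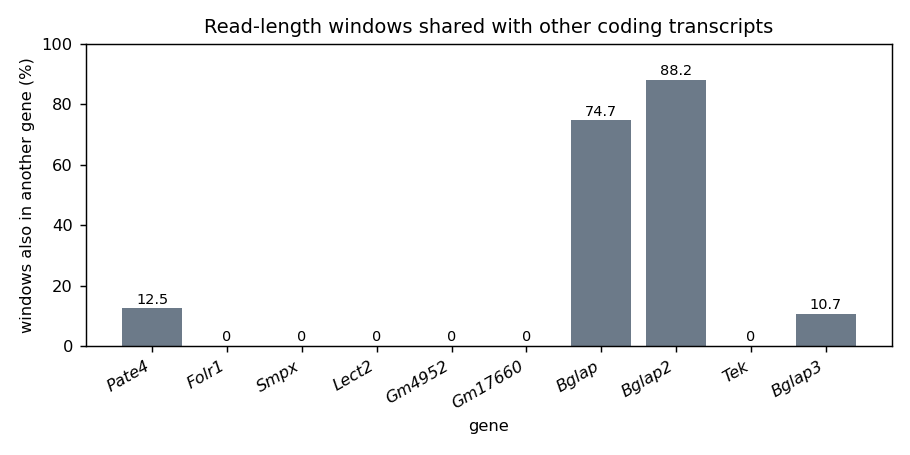
Share of the 50-base windows of each gene's longest coding transcript (%, vertical axis) that also occur in a transcript of another coding gene of mm9, with 1 bar per gene (horizontal axis) for the 9 genes and Bglap3. That transcript has 2051 bases for Bglap3, 440 for Bglap and 471 for Bglap2, so the share of Bglap3 is taken over a longer sequence. Bglap (74.7%) and Bglap2 (88.2%) stand apart, Pate4 is at 12.5%, Bglap3 is at 10.7%, and the other 6 selected genes are at 0.

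Gm17660 is known only by a code in most tables, and its coding sequence is given so that it can be identified. It has 273 bases in 8 coding exons within chr5:104500271-104505592 (mm9, minus strand), and the line below reads 5′ to 3′ on that strand.
Gm17660: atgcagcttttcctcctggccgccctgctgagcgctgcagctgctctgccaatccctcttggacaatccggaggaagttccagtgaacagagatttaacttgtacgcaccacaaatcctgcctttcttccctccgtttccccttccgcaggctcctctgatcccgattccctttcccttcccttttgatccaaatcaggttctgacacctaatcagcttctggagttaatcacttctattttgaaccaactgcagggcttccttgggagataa
No window of Gm17660 was found in another coding gene.

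The promoter table of RefSeq (GRCm38.p6), which covers 250 bases before to 50 bases after each start, held 7 promoters for 6 of the genes (Bglap, Gm17660, Gm4952, Lect2, Smpx and Tek). The octamer ATGCAAAT, a core sequence of POU factors such as Pou2f3, was looked for on both strands and occurred in 1.74% of 32851 promoters and in none of these 7. The core AACCACA of Runx factors, which act on osteocalcin in bone, occurred in 5.27% of promoters and in none of the 7. With shares this low, 7 promoters are too few to read anything about POU or Runx factors from an absence. The TATA sequence TATAAA was in 13.6% of promoters and in 1 of the 7, that of Bglap. Its last 120 bases before the start, GRCm38.p6 chr3:88384467-88384586 on the minus strand, are printed to show that TATA sequence, in capitals, which begins 27 bases before the start.
Bglap promoter: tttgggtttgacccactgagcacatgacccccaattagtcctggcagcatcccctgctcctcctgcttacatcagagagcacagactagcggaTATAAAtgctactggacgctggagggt

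The lowest listed value of a library, called the floor here, was 0 in 9 libraries and 0.17 in non-tuft 2, and 1442 to 3753 of the 12160 genes stood at it in each library. Depth is unknown because the files hold no counts, so a gene at the floor may still have been expressed. Siglecf, the antigen of the sort, was at 5.62 to 7.52 in the tuft libraries, and above the floor in only 1 non-tuft library, non-tuft 2, at 1.61. Of 34 listed tuft markers, 33 or 34 were above the floor in each tuft library. In non-tuft libraries 1 to 5 there were 23, 29, 12, 11 and 31, with the highest median levels, 3.93 and 4.0, in non-tuft 2 and 5. Tuft markers were thus found in the non-tuft sort as well, most in those 2 libraries. By limma, 32 of the 34 were called higher in the tuft libraries. Of acinar markers the reverse was seen, with 15 of 21 called lower: the summed linear level of 21 genes was 138000 to 184000 in the non-tuft libraries, and 63000, 40000, 17500, 127000 and 1560 in tuft libraries 1 to 5.

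Pate4 had the highest mean level of the 9 genes. It was at 9.38, 8.24, 8.45, 8.70 and 8.52 in tuft libraries 1 to 5 (8.66 ± 0.43, SD, n = 5), rank 118 of 12160 by tuft mean. Non-tuft 5 had it at 2.04, which on the linear scale is 0.739% of its tuft mean, and the other 4 non-tuft libraries had it at the floor. The groups were 6.21 apart on the log2 scale between the lowest tuft and the highest non-tuft library. This gene of seminal vesicle fluid thus stood between percentiles 98.5 and 99.4 of all listed genes in every tuft library. Its linear tuft median was 367 in normalized RPKM.

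Lect2 was at 6.85, 8.26, 7.55, 7.09 and 8.23 in tuft libraries 1 to 5 (7.59 ± 0.64, SD, n = 5, rank 277). Non-tuft library 2 had Lect2 at 3.64, or 5.51% of the linear tuft mean, and the other 4 non-tuft libraries had it at the floor. Here too the groups did not overlap, with a gap of 3.21.

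The levels of the osteocalcin copies varied together. Bglap was at 5.50, 5.65, 7.14, 6.0 and 7.40 in tuft libraries 1 to 5 (6.34 ± 0.88, SD, n = 5, rank 706), and Bglap2 at 5.32, 6.05, 7.30, 5.54 and 7.44 (6.33 ± 0.99, SD, n = 5, rank 712). No non-tuft library had either above its floor, and both were highest in tuft 3 and tuft 5. In no tuft library did they differ by more than 0.46, against ranges of 1.90 and 2.12 across the libraries. Bglap3 was at 6.87, 7.97, 9.19, 6.82 and 9.42 in the tuft libraries (8.05 ± 1.23, SD, n = 5), again highest in tuft 3 and 5. Unlike the other copies it was above the floor in 4 non-tuft libraries, at 0.76, 0.33, 0.44 and 1.90 in non-tuft 1, 3, 4 and 5. The libraries rank by Bglap3 in exactly the reverse order of their acinar marker sum, and tuft 3 and 5 also had the fewest genes at the floor among the tuft libraries, 1751 and 1538. What part these play in the level of the copies was not tested.

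Gm17660 was at 5.75, 7.05, 5.90, 7.49 and 5.85 in tuft libraries 1 to 5 (6.41 ± 0.80, SD, n = 5, rank 667), and each non-tuft library had it at its floor. Tuft 2 and tuft 4 had more than 1 log2 unit above the other 3, a split that no osteocalcin copy shared.

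Among the receptors, Folr1 was at 7.04 in tuft 1 and at 7.97, 7.97, 8.23 and 8.05 in tuft libraries 2 to 5 (7.85 ± 0.47, SD, n = 5, rank 226). Tek was lower, at 4.56, 5.80, 5.56, 6.42 and 6.06 (5.68 ± 0.70, SD, n = 5, rank 1113). Neither was above the floor in any non-tuft library, and both were lowest in tuft 1 and highest in tuft 4. The tuft median was 250 normalized RPKM for Folr1 and 54.7 for Tek.

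The muscle gene Smpx varied least. Its levels were 7.85, 8.10, 7.66, 7.45 and 7.59 in tuft libraries 1 to 5 (7.73 ± 0.25, SD, n = 5, rank 254), and the 5 non-tuft libraries had it at the floor. On the linear scale the highest tuft library had 1.57 times the level of the lowest. Gm4952 was at 7.48, 6.16, 7.84, 8.03 and 7.53 (7.41 ± 0.74, SD, n = 5, rank 331), low in tuft 2 and between 7.48 and 8.03 in the other tuft libraries. It was at 4.18 in non-tuft 5, 9.27% of the linear tuft mean and the highest non-tuft level of the 9 genes, and at the floor in the other 4 non-tuft libraries. The gap between its groups was 1.98, the smallest of the 9.

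**Figure D2:**
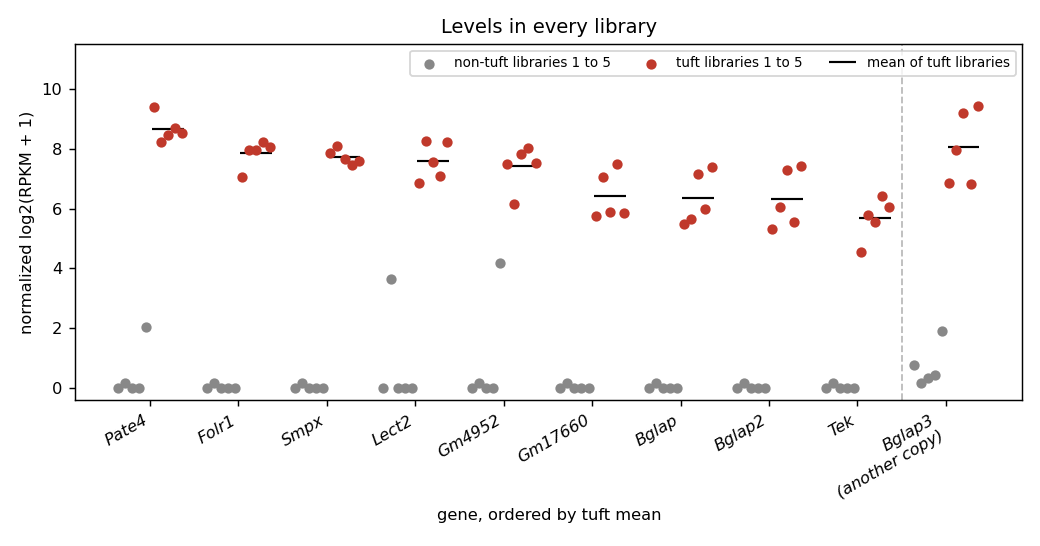
Level of each of the 9 genes and of Bglap3 (normalized log2(RPKM + 1), vertical axis) in the 5 non-tuft and 5 tuft libraries, with 1 point per library and a line at the tuft mean, genes ordered by that mean. All tuft points lie between 4.56 and 9.42, and of the 9 genes only Pate4 (2.04), Lect2 (3.64) and Gm4952 (4.18) have a non-tuft point above the floor.

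Of the 9 genes, 3 were therefore above the floor in any non-tuft library, Lect2 in non-tuft 2 and Pate4 and Gm4952 in non-tuft 5. These are the libraries with the highest tuft marker medians, and the part of such cells or RNA in the 3 values was not tested. It follows directly that all 9 genes were at the floor in every remaining non-tuft library, which is no further result.

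Across all listed genes, 525 were called higher in the tuft libraries (4.32%) and 485 lower (3.99%), where a call needs an adjusted p under 0.05 by limma and a fold change over 4. Of these calls, 52.0% were higher, and 86.4% when libraries were centred on 80 ribosomal protein genes, which moved the median difference of all genes from 0.02 to 0.87. In 767 genes (6.31%) every tuft library was above every non-tuft library. All 9 genes met both criteria, which the way they were chosen fixes. Written as a pattern (the floor in at least 4 non-tuft libraries and at least 4 in every tuft library), the choice describes 25 listed genes, and the 4 highest by tuft mean were Pate4, Folr1, Smpx and Lect2. The other 16 include Siglecf, the ficolin gene Fcna, the transcription factor Gfi1b and the interleukin 25 receptor subunit Il17rb. With the floor required in all 5 non-tuft libraries, 11 genes were left, 6 of them from the 9. Just inside the limit were D330045A20Rik, with a lowest tuft level of 4.02, and Scn7a and Pstpip1, each with 4.05. Tek had the lowest of the 9, 4.56. Just outside were Pla2g7, with a lowest tuft level of 3.95, and Ly6g6f, Pygl and Ms4a8a, which had lowest tuft levels of 7.27, 7.18 and 6.70 but the floor in only 3 non-tuft libraries.

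**Figure D3:**
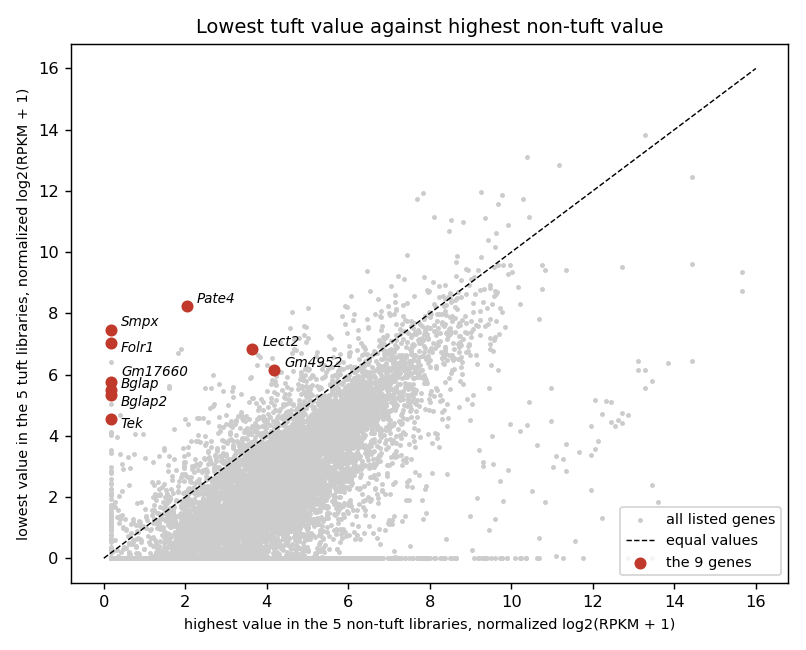
Lowest level in the 5 tuft libraries (vertical axis) against highest level in the 5 non-tuft libraries (horizontal axis), both in normalized log2(RPKM + 1), for all 12160 listed genes (grey) and the 9 genes (red), with a dashed line of equal values. The 9 genes lie above the line, 6 of them at the left edge where every non-tuft library is at the floor, and Gm4952 lies nearest to it.

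By tuft mean the order was Pate4, Folr1, Smpx, Lect2, Gm4952, Gm17660, Bglap, Bglap2 and Tek. In no neighbouring pair did the mean difference exceed the SD of the difference between libraries. Pate4 was above Folr1 in 5 of 5 tuft libraries, by 0.81 ± 0.86 (SD of the difference, n = 5). Folr1 exceeded Smpx by 0.12 ± 0.61, Smpx exceeded Lect2 by 0.14 ± 0.61, and Lect2 exceeded Gm4952 by 0.19 ± 1.23, so these 4 form a group whose order changes from library to library. Gm4952 was 1.00 ± 1.19 above Gm17660, higher in 4 of 5 libraries. Gm17660, Bglap and Bglap2 were again together, with differences of 0.07 ± 1.43 and 0.01 ± 0.33, and Bglap2 was 0.65 ± 1.03 above Tek.

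The spread over the tuft libraries set the genes apart from each other. Among 3111 genes with a tuft mean of at least 4, the median SD over the tuft libraries was 0.54 (quartiles 0.38 and 0.74). Smpx, Pate4 and Folr1 were below that median, and the other 6 were above it, up to 0.99 for Bglap2. To compare profiles, each gene was centred on its tuft mean and the root mean square distance between genes was taken over the 5 tuft libraries, which is a description of 5 points that share their libraries. Over the 36 pairs it ran from 0.25 to 1.37 with a median of 0.79. The closest pairs were Folr1 with Tek (0.25), on the same side of their means in 4 of 5 libraries, and Bglap with Bglap2 (0.29), in 5 of 5. Smpx was closest to Pate4 (0.47), but on the same side in only 3 of 5. This distance is also smaller for genes of low spread, such as Smpx and Pate4, so it shows no shared profile for them. The most distant pair was Bglap2 with Gm17660 (1.37). Bglap3 was 0.27 from Bglap2 and 0.54 from Bglap. As the osteocalcin copies share windows, their closeness is no observation of separate genes. Of the 9 genes, 6 had their lowest tuft level in tuft 1, where 27.4% of the 3111 genes had theirs, and 4 had their highest in tuft 4, where 16.9% did. Bglap and Bglap2 are both among those 6.

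**Figure D4:**
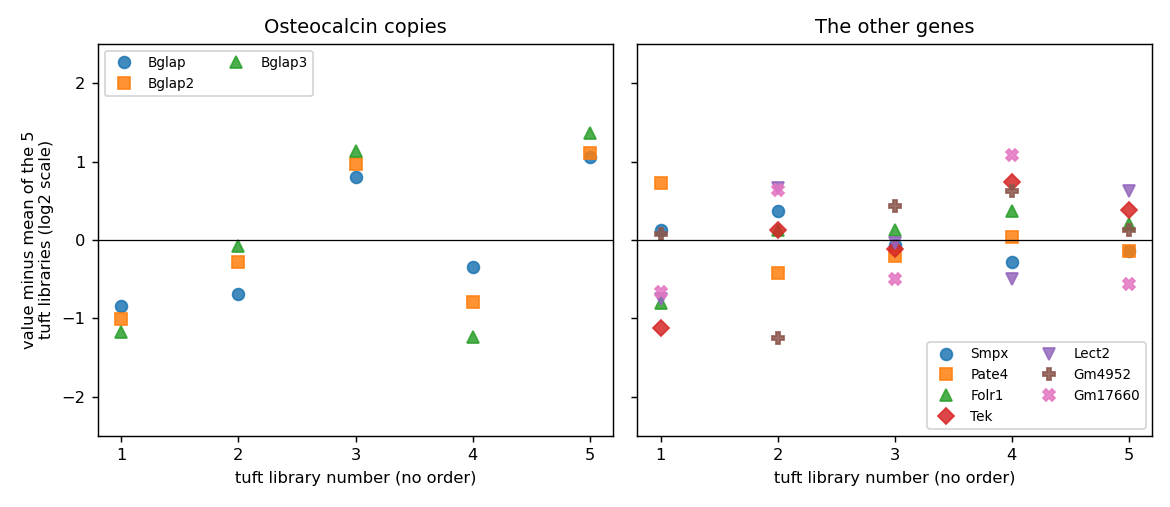
Level of each gene in the 5 tuft libraries minus its tuft mean (log2 units, vertical axis), 1 marker per gene and library (horizontal axis, in no order), with the osteocalcin copies on the left and the other 7 genes on the right. Folr1 and Tek share the low value in tuft 1, the osteocalcin copies share the high values in tuft 3 and 5, and Gm17660 is high in tuft 2 and 4.

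The listed genes outside the 9 with the most similar levels over all 10 libraries (smallest Euclidean distance in log2 units) were then sought. The 9 were chosen on these same values and few listed genes share their pattern. That the same neighbours recur is therefore a description. Fcna was nearest to Folr1 (1.48) and Smpx (1.99), with Ms4a8a, a membrane-spanning protein, second for both (2.17 and 2.42). Siglecf was nearest to Bglap (1.76), Bglap2 (1.96), Gm17660 (2.74) and Lect2 (3.23). Fcna was second for Lect2 (3.92), and Mir124a-1hg was second for Tek (2.14). Pygl, the liver glycogen phosphorylase, was nearest to Gm4952 (1.46), before the small GTPase Rac2 (2.20). The gene nearest to Pate4 was Bglap3, at 3.48, with Ms4a8a second at 3.78. These distances are similar to those of Lect2.

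Genes from pathways or families linked to the selected genes were then examined, in 6 lists. These lists relate to Folr1, the osteocalcin copies, Tek, Lect2, Pate4 and Gm4952, and none was made for Smpx or Gm17660. Of the 75 listed genes in them, 2 were called higher in tuft cells (2.67%, against 4.32% of all listed genes) and 8 lower (10.7%, against 3.99%). The 2 called higher were Ly6g6d and Bglap3. As an osteocalcin copy that shares windows with selected genes, Bglap3 is no separate observation in that count. Their median difference between the group means, tuft minus non-tuft, was -0.61 on the log2 scale, and that of all listed genes was 0.02. With libraries centred on ribosomal protein genes, 6 were called higher and 3 lower, and without non-tuft 2 and 5 the count called lower was 5. A difference in the next paragraphs is on the log2(RPKM + 1) scale, which understates the change of low genes, with its standard error (SE), and adjusted p-values are from limma with Benjamini-Hochberg adjustment over 12160 genes.

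Beside Folr1, folate is carried by the reduced folate carrier Slc19a1 and the proton-coupled transporter Slc46a1, kept in cells by the polyglutamate synthase Fpgs, and released by the hydrolase Ggh. Of 31 folate and one-carbon genes, 25 were listed, and 0 were called higher by limma (2 at an unadjusted p under 0.05) and 3 lower (9), with a median difference of -0.81. Ggh was at 3.25 to 4.42 in the tuft libraries and at 5.77 to 7.54 in the non-tuft libraries, and was lower by -2.87 ± 0.46 (SE, adjusted p = 0.00125), without overlap. Fpgs differed by -2.18 ± 0.52 (SE, adjusted p = 0.0155) and the mitochondrial formyltetrahydrofolate dehydrogenase Aldh1l2 by -3.31 ± 0.79 (SE, adjusted p = 0.0147). Without tuft 5, Fpgs differed by -1.96 and missed the fold threshold. Without non-tuft 2 and 5 together, neither Fpgs (adjusted p = 0.0759) nor Aldh1l2 (adjusted p = 0.0984) was called, while over all alternatives their adjusted p ran from 0.00754 to 0.0759 and from 0.00185 to 0.0984. Slc46a1 was at the floor in 4 tuft libraries and differed by -1.96 (adjusted p = 0.0685), which passed only without non-tuft 3 (-2.45, adjusted p = 0.0186). Shmt1, a serine hydroxymethyltransferase at the floor in all 5 tuft libraries, missed the fold threshold at -1.93 (adjusted p = 0.0197) and passed without non-tuft 2, its only non-tuft library at the floor (-2.37, adjusted p = 0.00123). Slc19a1 differed by -0.81 (adjusted p = 0.311), and by 0.03 with ribosomal centring. Folr2, the neighbouring receptor gene, was at 2.55 and 1.64 in tuft 3 and 4, at 2.87 in non-tuft 4 and at 0.25 in non-tuft 3, and at the floor elsewhere (adjusted p = 0.903). Mthfs, also on the list, was higher without overlap, at 5.30 to 6.06 in the tuft and 4.27 to 5.23 in the non-tuft libraries. It was not called (0.92 ± 0.37, SE, adjusted p = 0.14). The folate receptor was thus high in cells where no other listed folate gene was called higher.

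Osteocalcin needs the vitamin K cycle. Ggcx, the carboxylase, differed by -1.15 ± 0.99 (SE, adjusted p = 0.517) and Vkorc1, the reductase that regenerates vitamin K, by -0.43 ± 0.39 (SE, adjusted p = 0.535), or by 0.42 with ribosomal centring. Vkorc1 was at 3.76 to 4.81 in the tuft libraries, and Ggcx was at the floor in tuft 4 and at 1.07 to 3.97 in the others. Of 23 genes of vitamin K metabolism and of other Gla proteins, 15 were listed. Bglap3 was the only one called higher (7.33 ± 0.59, SE, adjusted p = 8.75e-06), and as an osteocalcin copy that shares windows with the selected ones it is no separate observation. Gas6, a Gla protein and ligand of the TAM receptors, was lower by -2.09 ± 0.52 (SE, adjusted p = 0.0193) without overlap. Its fold change fell under the threshold, or its adjusted p above it, without non-tuft 3 (-1.97, adjusted p = 0.0476), non-tuft 4 (-1.90, adjusted p = 0.0483), tuft 2 (-1.81, adjusted p = 0.0526) or tuft 3 (-1.89, adjusted p = 0.0574). Gas6 therefore stood at the edge of the call.

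Tek binds the angiopoietins and pairs with Tie1. Of 20 genes of that pathway, 18 were listed, 0 were called higher by limma (2 at an unadjusted p under 0.05) and 1 lower (3). Angpt1, the activating ligand, was at the floor in 3 tuft libraries and at no more than 0.92 in the other 2. Angpt2, the context-dependent ligand, did not exceed 1.79 in any library. Tie1 was at 1.10, 1.78, 1.38, 1.30 and 2.17 in tuft libraries 1 to 5, and at 0.79 in non-tuft 1 with the floor in the other 4. Its difference of 1.35 ± 0.37 (SE, adjusted p = 0.0318) and that of the Tek adaptor Dok2, 1.80 ± 0.44 (SE, adjusted p = 0.0161), had no overlap between the groups but stayed under a 4-fold change. Both passed with ribosomal centring (2.20, adjusted p = 0.00601, and 2.65, adjusted p = 0.00472) and with 0.1 added (3.46 and 3.52), while with the replicate number as a block the adjusted p was 0.0655 for Tie1 and 0.0419 for Dok2, so their calls depend on the scaling. Grb14, an adaptor, was lower by -2.11 ± 0.63 (SE, adjusted p = 0.0455). That call was lost without any of non-tuft 1, 2 or 4 or tuft 1, 2, 3 or 5, with adjusted p of 0.105, 0.103, 0.0997, 0.0934, 0.0977, 0.104 and 0.102 in that order.

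Tie1 and Met have been described as receptors of Lect2, and were the 2 listed of 3 such genes. Met, the hepatocyte growth factor receptor, was at 0 to 2.30 in the tuft libraries and at 3.92 to 5.50 in the non-tuft libraries, lower by -3.02 ± 0.52 (SE, adjusted p = 0.00208) without overlap. Thus the cells with Lect2 had less Met. Tie1 was low in both groups and went the other way, with a mean of 1.54 in the tuft and 0.19 in the non-tuft libraries.

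Of 36 Ly6/uPAR genes, the family of Pate4, 14 were listed. Ly6g6d was higher, at 4.78 to 5.88 in the tuft libraries and up to 4.47 in non-tuft 5 (3.49 ± 0.77, SE, adjusted p = 0.0094), and Cd59a, an inhibitor of complement, was lower (-2.38 ± 0.56, SE, adjusted p = 0.014). Cd59a was not called without non-tuft 2 and 5 (adjusted p = 0.0935, in a range of 0.00438 to 0.105 over all alternatives). Of 11 genes of acyl-CoA conjugation, only Glyat and Acnat1 were listed. Glyat was at the floor in every library except tuft 3, where it was 1.86, while its neighbour Gm4952 was high in all 5 tuft libraries. Acnat1, an amino acid N-acyltransferase of peroxisomes, was lower in tuft cells by -3.27 ± 0.72 (SE, adjusted p = 0.00951). Acnat1 was not called with ribosomal centring (-2.43, adjusted p = 0.0576), with 0.1 added (adjusted p = 0.0557) or with 10 added (-1.85), in a range of 0.00276 to 0.0576.

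**Figure D5:**
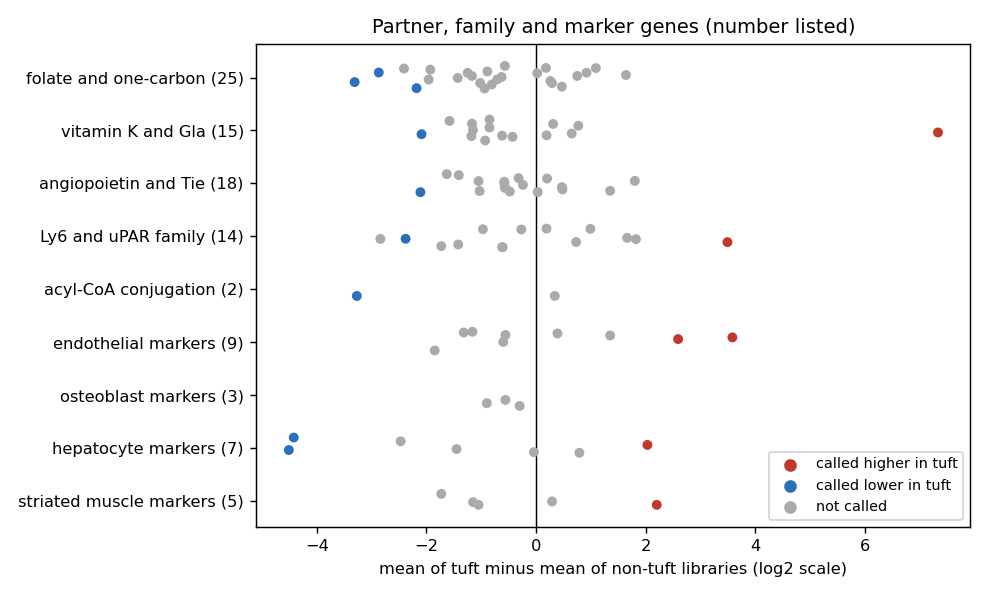
Difference between the mean of the tuft and the mean of the non-tuft libraries (log2 scale, horizontal axis) for each listed gene of 5 pathway and family lists and 4 marker lists (rows, number listed in brackets, points offset vertically for sight), coloured by call. Bglap3 at 7.33 stands alone on the right of the vitamin K row, the folate row has 3 genes called lower and none higher, and no osteoblast marker is called.

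Neighbouring genes were compared next, since position was not used in choosing the 9. The nearest 2 listed genes on each side gave 32 different genes, of which 2 were called higher (6.25%, against 4.32% of all) and 3 lower (9.38%, against 3.99%). Fbxl21, an F-box gene 4.56 kb from Lect2 on chromosome 13, was at 3.56 ± 0.46 in the tuft libraries and at 0.43 ± 0.87 in the non-tuft libraries (SD, n = 5 each), a difference of 3.13 ± 0.47 (SE, adjusted p = 0.000926) without overlap. The RefSeq spans of Lect2 and Fbxl21 overlap in GRCm38.p6 and the counting is not stated to use strand, so reads of the 2 genes may not be told apart. Hsd17b11, a hydroxysteroid dehydrogenase gene 48.1 kb from Gm17660, was higher by 2.34 ± 0.57 (SE, adjusted p = 0.0161), and by 1.93 without non-tuft 1, under the fold threshold. Without non-tuft 2 and 5 it was not called either (adjusted p = 0.109, in a range of 0.00277 to 0.109).

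Gm17660 lies on chromosome 5 in the region of the calcium-binding phosphoprotein genes, 358 kb from Spp1, which encodes osteopontin and belongs to the same family. Spp1 was at 5.78 ± 2.06 in the tuft and at 10.32 ± 1.05 in the non-tuft libraries (SD, n = 5 each), lower by -4.55 ± 0.87 (SE, adjusted p = 0.00413). Gm17660 and Spp1 thus differed in opposite directions, but that of Gm17660 was fixed by the way it was chosen. Spp1 is also on the list of ductal markers read below. Sparcl1, 1.50 kb from Gm17660, did not pass the test (0.48 ± 0.85, SE, adjusted p = 0.773). The other genes called lower were Jun, 174 kb from Tek (-2.73 ± 0.51, SE, adjusted p = 0.00347, or -1.88 and under the fold threshold with ribosomal centring), and A630095E13Rik, 1020 kb from Pate4 and listed at 0 in all 5 tuft libraries (adjusted p = 1.07e-05). Around Folr1, Anapc15 at 10.5 kb was higher by 1.72 ± 0.40 (SE, adjusted p = 0.0132) without overlap but under the fold threshold, which it passed with ribosomal centring (2.57). Around the osteocalcin copies, Pmf1, 9.67 kb from Bglap, differed by -0.52 ± 0.60 (SE, adjusted p = 0.638).

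Markers of the cell types in which the 9 genes are best known were read in the same libraries. Of 15 osteoblast markers, 3 were listed (Alpl, Col1a1 and Col1a2) and 0 were called by limma or had an unadjusted p under 0.05. Their summed linear level was 0 in tuft 1 to 4, 28.3 in tuft 5 and 0.23 to 119 in the non-tuft libraries. In 4 of the 5 libraries with osteocalcin transcripts the listed osteoblast markers were thus at the floor. None of 10 seminal vesicle markers was listed, nor was any of 9 markers of eosinophils, leukocytes that carry Siglec f.

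Of 30 striated muscle markers, 5 were listed, and Tnnt2, Ldb3 and Actn2 were above the floor in no tuft library. Tnnt1, a slow troponin T, was higher by 2.20 ± 0.56 (SE, adjusted p = 0.0218) and was not called without tuft 1 (adjusted p = 0.0532), tuft 2 (adjusted p = 0.0612), tuft 3 (adjusted p = 0.0642) or tuft 5 (adjusted p = 0.0554). Of 18 hepatocyte markers, 7 were listed. The plasma protein genes Trf (-4.42 ± 0.71, SE, adjusted p = 0.00137) and Rbp4 (-4.51 ± 0.99, SE, adjusted p = 0.00908) were lower in tuft cells, and Rbp4 was not called without non-tuft 2 and 5 (adjusted p = 0.101, in a range of 0.00328 to 0.101). Hnf4a, a transcription factor of liver and of gut and pancreatic epithelium, differed by 2.03 with an adjusted p of 0.0496, a call that was lost without any 1 of 9 of the 10 libraries, all but non-tuft 1, with adjusted p from 0.065 to 0.113, and also with the replicate number as a block (adjusted p = 0.059). The summed hepatocyte level was 45.5 to 124 in the tuft and 86.0 to 274 in the non-tuft libraries.

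Of 12 ductal markers, 1 was called higher and 2 lower, and of 14 listed islet markers 4 were called lower.

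Of 23 endothelial markers, 9 were listed. Clec14a (3.58 ± 0.39, SE, adjusted p = 7.15e-05) and Esam (2.59 ± 0.63, SE, adjusted p = 0.017) were higher, and Esam was not called without tuft 3 (2.32, adjusted p = 0.0536) or without non-tuft 2 and 5 (adjusted p = 0.118). Tie1, also on this list, was higher without overlap but under the fold threshold (1.35, adjusted p = 0.0318 by limma). Pecam1, the defining adhesion molecule of endothelium, was at the floor in 4 of the 5 tuft libraries and at 2.12 in tuft 5. It was at 4.47 and 3.31 in non-tuft 1 and 5, and at the floor in the other non-tuft libraries. The median difference of the 9 listed markers was -0.56. The summed endothelial level was 18.9 to 49.9 in the tuft and 2.80 to 57.2 in the non-tuft libraries, and thus overlapped. Of 13 leukocyte markers, 9 were listed and only Ptprc, which encodes Cd45, was higher (2.72 ± 0.49, SE, adjusted p = 0.00292), in cells gated as Cd45-neg. What part other cells had in the levels of the 9 genes was not tested.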

How the data were processed

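Per the labels and the study's methods, the authors mapped single-end reads of 50 bases with HISAT2 (genome mm9), estimated RPKM with StringTie and Ballgown, dropped genes of low variance and quantile-normalized log2(RPKM + 1). The deposited table holds these log2 values for 12160 genes in 10 libraries, with the authors' own fold changes and p-values, which were not used. The filter and the quantile step act on all libraries together, so low genes may be missing and levels are relative to the other genes. Differences were fitted with lmFit and eBayes of limma 3.58.1 (R 4.3.3), without covariates, on all 10 libraries, with Benjamini-Hochberg adjustment over all genes, and the fit was tested on simulated data. Calls required a fold change over 4 with an adjusted p under 0.05. Depth is unknown, since the table holds no counts.

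The genes, the 17 lists and the naming rule were chosen with earlier results of these data known. Named were the 9 genes, checks of the sort, called or directly acting genes of each list, called neighbours, and nearest profiles, without 1 gene that is not reported here. Shmt1, Mthfs, Dok2, Anapc15, Sparcl1, Pmf1, Ptprc, Pecam1 and the listed examples of other genes with the same pattern were chosen after their values were seen. Positions came from an NCBIM37 annotation that held 97.1% of the listed names. Alternatives were ribosomal centring, 0.1 or 10 added in place of 1, a mean of at least 2, a common floor, a replicate block, trend and robust eBayes, other fold thresholds and each library left out. Leaving out non-tuft 2 and 5 together was added after seeing the data. Python 3.11.15, pandas 2.3.3 and matplotlib 3.10.9 were used.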

Additional observations from a re-analysis of the deposited data

Results flagged for a closer look

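For the 9 genes and Bglap3, the 5 libraries of each group were examined for a single library far from the other 4, with values at the floor taken as 0. Folr1 was low in tuft 1, at 7.04, where the other 4 tuft libraries were between 7.97 and 8.23. In the non-tuft libraries, Pate4 was at 2.04 and Gm4952 at 4.18 in non-tuft 5, and Lect2 was at 3.64 in non-tuft 2, each with the floor in the other 4. The genes were chosen for the floor in most non-tuft libraries, so these 3 values are a description. Non-tuft 2 and 5 had the highest medians of the tuft markers, 3.93 and 4.0, and the part of that in these values was not tested.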

How the results depend on the processing

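Each of the 9 genes stayed higher in the tuft libraries under all 15 alternatives computed for them. Given how they were chosen, that direction is no further result. The size of the difference depended on the setting, from 2.61 to 8.74 for Tek and from 4.47 to 10.81 for Smpx. With ribosomal centring, the calls over all genes went from 525 to 1409 higher and from 485 to 222 lower, and those among pathway and family genes from 2 to 6 higher and from 8 to 3 lower. With 10 added before log2, there were 162 higher and 116 lower calls over all genes, 1 and 1 among pathway and family genes, and 3 among neighbours in place of 5. Pathway and family genes called higher numbered 4 with 0.1 added, with a 2-fold threshold and with none. Without non-tuft 2 and 5 together, 5 of them were called lower. The pattern of the 25 genes held for 11 when all 5 non-tuft libraries had to be at the floor, and for 40 or 12 with a lowest tuft level of 3 or 5. Leaving out 1 library at a time gave 447 to 533 higher and 394 to 477 lower calls over all genes, 2 to 3 and 6 to 8 among pathway and family genes, 4 to 5 among neighbours, and 51 to 62 among markers, where 61 were called with all libraries.

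Of 26 named genes that were called, 9 kept the call in all alternatives. With 1 library left out, Folr2 ran from -0.25 to 0.73 and changed sign without tuft 3 and tuft 4, and Glyat ran from -0.03 to 0.43 and changed sign without tuft 3. Folr2 also changed sign without non-tuft 2 and 5 (-0.20), and Slc19a1 (0.03) and Vkorc1 (0.42) with ribosomal centring. Ribosomal centring ended the calls of Fpgs, Gas6, Grb14, Cd59a, Acnat1 and Jun and made those of Tie1, Dok2 and Anapc15. Adding 0.1 ended those of Acnat1, Esam and Hnf4a and made those of Tie1, Dok2, Anapc15 and Shmt1. Adding 10 ended 15 calls. Leaving out non-tuft 2 and 5 ended those of Fpgs, Aldh1l2, Gas6, Grb14, Cd59a, Esam, Rbp4, Hnf4a, Tnnt1 and Hsd17b11. Both populations were sorted from 5 mice, but whether a replicate number marks 1 mouse is not given in the sources used here, so the fit without a block was kept and the pairing was not settled: the correlations of the deviations of same-numbered libraries were 0.124, 0.079, 0.115, 0.062 and 0.24, and 3 of 5 correlated best with their own number. With the number as a replicate block, 518 genes were called higher and 491 lower, and among named genes only Hnf4a lost its call. The cause of these changes was not tested. Values near the floor cannot be bounded without counts.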
